A study of Rattus norvegicus with 8 samples.

Results

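Ucp2 and Ucp3 encode uncoupling proteins, carriers of the mitochondrial inner membrane. They were measured by 4 of the 8740 probe sets on the array, 2 for each gene. They belong to 2 genes and are all probe sets whose only gene symbol in the platform annotation is Ucp2 or Ucp3, a rule that uses no measured value, although the genes were picked with earlier results of these data known. RNA came from the soleus of female rats, a hindlimb muscle built mostly of slow fibres. Control rats (3 arrays) had 12 h of spontaneous cage activity. Unloaded rats (3 arrays) were kept from standing on their hindlimbs for 12 h. Walked rats (2 arrays) were unloaded for 12 h as well, after which they walked on a treadmill for 2 h in all, in bouts of 30 min alternating with 30 min in the cage over 4 h. No group had the extra 4 h without walking, so the walking and the added time cannot be told apart. Each array received a pool of soleus RNA from 8 to 10 rats. The spread behind every p-value is therefore that between pools, which is not the spread between single rats. The labels used here name no strain or age.

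The uncoupling proteins belong to the family of mitochondrial carriers that also holds the ADP/ATP exchangers. Ucp1, the founding member, dissipates the proton gradient as heat in brown fat. Ucp3 is made mainly in skeletal muscle and brown fat, more in fast than in slow fibres, and its mRNA in muscle is known to rise when fatty acid supply rises, as in fasting. It has been linked to fatty acid handling and to limiting mitochondrial oxidants, and its exact transport activity is debated. Ucp2 is made in many tissues, with high levels in cells of the immune system.

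Ucp3 and Ucp2 are direct neighbours on rat chromosome 1 in the RefSeq annotation of GRCr8, on the same strand, with 0 protein-coding genes between them. The 250 bases before each annotated start are printed because the genes lie side by side and are both carriers of the same family. Ucp3 passed the test in the comparisons that follow and Ucp2 did not. A difference in response between them was not shown on their brighter probe sets (exact permutation test over the 3 groups, p = 0.0821). Whether these sequences bear on the response of either gene was not tested. The sequences are RefSeq's, from GRCr8, plus strand. The Ucp3 window is chr1:164227660-164227909 and the Ucp2 window chr1:164251123-164251372. Capitals mark AGGTCA, the hexamer that nuclear receptors such as the PPARs recognise, and CANNTG, the E-box read by muscle regulatory factors such as MyoD.
Ucp3: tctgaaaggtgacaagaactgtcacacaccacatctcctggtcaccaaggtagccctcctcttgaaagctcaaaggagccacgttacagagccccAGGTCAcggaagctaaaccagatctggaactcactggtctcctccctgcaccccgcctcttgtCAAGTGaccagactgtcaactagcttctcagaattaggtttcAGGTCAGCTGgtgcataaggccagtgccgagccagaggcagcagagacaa
Ucp2: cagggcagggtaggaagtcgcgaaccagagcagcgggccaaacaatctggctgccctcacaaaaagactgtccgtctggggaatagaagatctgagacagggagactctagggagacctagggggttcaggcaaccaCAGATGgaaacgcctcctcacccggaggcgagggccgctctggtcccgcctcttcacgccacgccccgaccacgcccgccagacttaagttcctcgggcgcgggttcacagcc
Searched on both strands, AGGTCA stood 2 times in the Ucp3 window, from 155 to 150 and from 50 to 45 bases before the start, and 0 times in the Ucp2 window. At least 1 match was present in 14.1% of 33469 promoter windows of the same length and at least 2 in 1.27%. CANNTG matched 2 times for Ucp3 and 1 time for Ucp2, against at least 1 match in 65.5% and at least 2 in 30.8% of all windows. The Ucp3 match nearer the start, from 46 to 41, reads CAGCTG, present in 12.0% of all windows, and overlaps the AGGTCA next to it. The paired element AGGTCANAGGTCA, searched letter for letter, had 0 matches in both windows and was present in 0.0508% of all windows. Pairs that differ from it in any fixed letter were not searched, so their absence is not shown. GGGCGG and TATAAA, present in 30.5% and 12.9%, also had 0 matches. The Ucp2 window held 17 CpG dinucleotides and the Ucp3 window 4, with a median of 5.0 over all windows. A match of letters is a description, not a binding site.

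Signals are MAS5 intensities on a linear scale, brought to a common trimmed mean on every array. A probe set is said to have risen or fallen where its adjusted p was under 0.05 in limma, fitted to all 5244 probe sets that passed a filter on dim signals and adjusted over all of them. All 4 probe sets of the uncoupling proteins passed that filter. Median signals per array ran from 37.1 to 42.4. The libraries correlated at 0.949 to 0.963 within groups and at 0.913 to 0.945 between groups. On the first principal component control pool 3 was at -30.0, away from its group mates at -14.2 and -16.3. Slow fibre markers were bright, with the slow myosin Myh7 at 5323 ± 169 (SD, n = 3) in control pools. Fast fibre markers ranged widely in the same pools. The fast myosin Myh4 was at 42.9 ± 4.08 (n = 3), the fast myosin Myh2 at 1852 ± 193 and Myl1 at 3433 ± 142.

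Ucp3 transcript roughly doubled with unloading and was below the control level after walking, on both of its probe sets. On its brighter probe set the signals were 302.3, 396 and 324 in control pools 1, 2 and 3. They were 798, 681 and 668 in the unloaded pools. In the walked pools they were 237 and 134. Every unloaded pool lay above every control pool, and each walked pool lay below every other array. The dimmer probe set had the same order, with 256, 329 and 293 in control, 660.1, 667 and 820.3 in unloaded and 179 and 168 in walked pools. In whole muscle, a change in the number of cells of a type and a change in RNA per cell cannot be told apart.

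**Figure D1:**
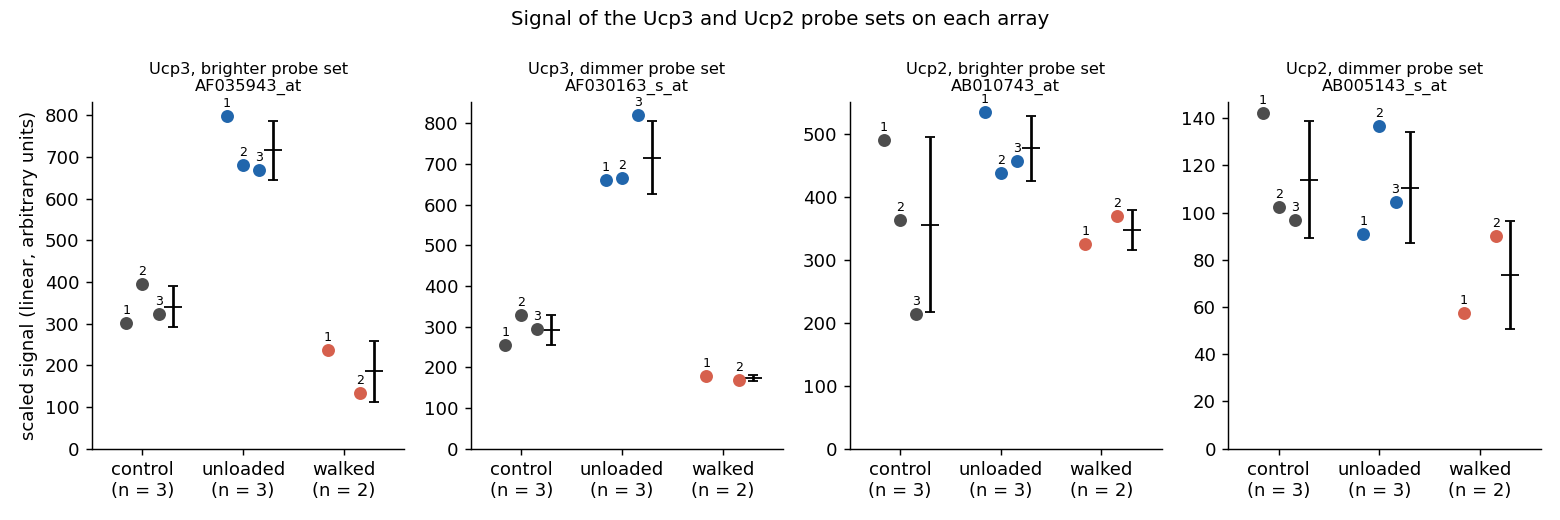
Scaled signal (linear, arbitrary units) of the 4 probe sets on each array. Points are arrays, labelled with the pool number, and bars beside them show the mean ± SD. Ucp3 signals lie between 660.1 and 820.3 in unloaded pools and at or below 396 elsewhere. Ucp2 signals run from 214 to 535 on the brighter probe set and from 57.4 to 142 on the dimmer. On both Ucp2 probe sets control and unloaded pools overlap, and walked pools lie below the unloaded ones.

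In unloaded against control, the brighter Ucp3 probe set went from 340.5 ± 49.0 (SD, n = 3) to 716 ± 71.5 (n = 3), 2.10-fold. Its log2 fold change was 1.08 ± 0.20 (SE), with a 95% confidence interval of 0.63 to 1.52 and a limma adjusted p of 0.00839. The dimmer one went from 293 ± 36.9 to 716 ± 90.6, 2.44-fold, with a log2 fold change of 1.29 ± 0.15 and a limma adjusted p of 0.000402. Both of the Ucp3 probe sets rose, against 3.99% of all tested probe sets, and both had no overlap between groups, against 10.2% in that direction. Among the 117 genes called higher, each read from its brightest probe set, 48 had a larger fold change than Ucp3. The call on the brighter probe set was lost when dim probe sets were also tested (limma adjusted p = 0.0699). It was also lost against a minimum fold of 1.5 (limma adjusted p = 0.569). The dimmer one kept its call in each of the 18 alternatives run.

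In walked against unloaded, Ucp3 fell on both probe sets. The brighter one dropped to 185 ± 72.6 (SD, n = 2), 3.86-fold lower, with a log2 fold change of -2.003 ± 0.23, an interval of -2.503 to -1.502 and a limma adjusted p of 0.000248. The dimmer one dropped to 173 ± 7.89, 4.13-fold lower, at -2.04 ± 0.17 and a limma adjusted p of 2.60e-05. Of all tested probe sets, 1.47% fell in this comparison and 21.8% lay below the unloaded arrays without overlap. Among the 55 genes called lower, 5 had a larger fall than Ucp3. No alternative processing or left-out array removed the call on either probe set. The brighter probe set moved to -2.41 without walked pool 1 and to -1.59 without walked pool 2, while the dimmer stayed between -2.10 and -1.94 without any 1 array.

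In walked against control, Ucp3 was lower on both probe sets, by a smaller amount. The log2 fold change was -0.93 ± 0.23 on the brighter probe set (interval -1.43 to -0.43, limma adjusted p = 0.0320) and -0.75 ± 0.17 on the dimmer (interval -1.12 to -0.39, limma adjusted p = 0.0213). These are 1.84-fold and 1.69-fold lower signals. In this comparison 4.61% of tested probe sets fell and 27.6% lay below the controls without overlap, and the median of all tested probe sets was itself at -0.11. The call was lost on both probe sets without control pool 2 (limma adjusted p = 0.0831 and 0.0638) or walked pool 2 (0.252 and 0.139), and on the dimmer without walked pool 1 (0.0864). It was also lost on both with no filter on dim probe sets (0.119 and 0.0516), without a variance trend (0.0857 and 0.0624), with a block on the pool number (0.0527 and 0.0536) and against a minimum fold of 1.5. Without walked pool 2 the brighter probe set moved to -0.52 and without walked pool 1 to -1.34.

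Pairs of groups of this size cannot give an exact permutation p under 0.1. Taken over the 3 groups at once, the 8 arrays can be assigned in 560 ways, and the exact permutation test on the brighter Ucp3 probe set gave p = 0.00357, the smallest it can give. The order of the group levels, walked below control below unloaded, was the same on both Ucp3 probe sets, and each neighbouring pair in it was separated without overlap. Of tested probe sets, 10.2% lay above the controls without overlap in unloaded pools and 27.6% lay below them in walked pools. The share with both was not computed.

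**Figure D2:**
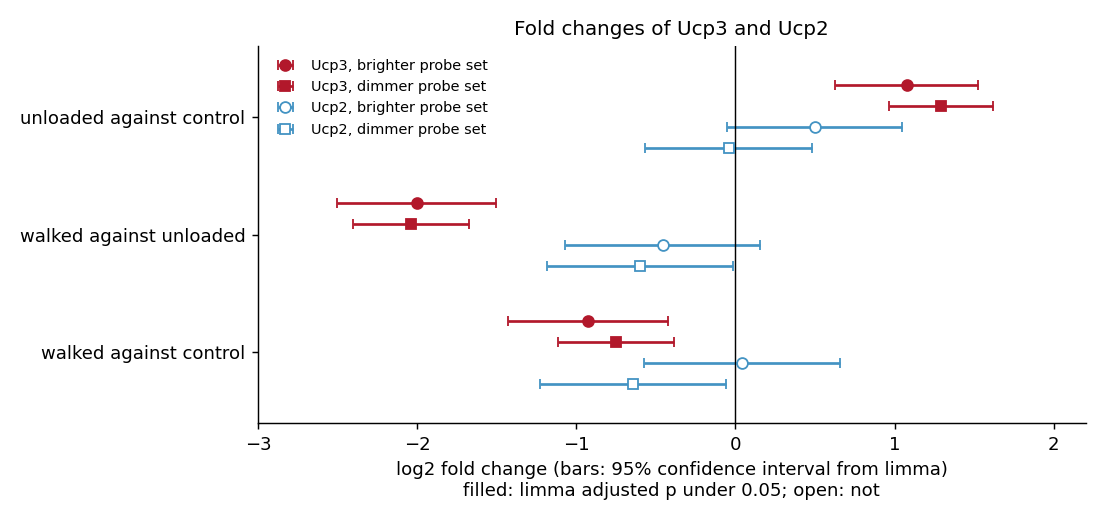
Log2 fold change (x axis) of the 4 probe sets in the 3 comparisons, with 95% confidence intervals from limma. Filled symbols have a limma adjusted p under 0.05. The Ucp3 intervals lie above 0 in unloaded against control and below 0 in the other comparisons, and no Ucp2 symbol is filled.

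Ucp2 was not called in any comparison, where 7.30%, 4.20% and 9.08% of tested probe sets were called in either direction in turn, and its probe sets did not move alike. The brighter one read 491, 363 and 214 in control pools 1, 2 and 3, a wider spread than the 535, 438 and 457 of the unloaded pools. The walked pools were at 324 and 369, inside the control range. Only the walked and unloaded groups did not overlap, where 21.8% of tested probe sets lay lower without overlap. The dimmer probe set, whose name ending marks it as able to match several transcripts, like that of the dimmer Ucp3 one, read 142, 102 and 97.0 in control, 90.8, 136 and 104 in unloaded and 57.4 and 89.8 in walked pools. There the walked pools were the lowest arrays, by 89.8 against 90.8 at the nearest, and control and unloaded pools were intermixed. Of tested probe sets, 21.8% lay below the unloaded arrays without overlap and 27.6% below the controls.

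The limma log2 fold changes of Ucp2 in unloaded against control were 0.50 ± 0.25 on the brighter probe set (interval -0.05 to 1.05, adjusted p = 0.290) and -0.04 ± 0.24 on the dimmer (interval -0.57 to 0.48, adjusted p = 0.945). Control pool 3, the most distant control array on the first principal component, had the lowest Ucp2 signal on the brighter probe set. Without it that value was 0.17, and without control pool 1 it was 0.77, with limma adjusted p = 0.668 and 0.0738. In walked against unloaded the values were -0.46 ± 0.28 (interval -1.07 to 0.16, limma adjusted p = 0.447) and -0.60 ± 0.27 (interval -1.19 to -0.02, limma adjusted p = 0.272). Walked against control, they were 0.04 ± 0.28 and -0.64 ± 0.27 (limma adjusted p = 0.946 and 0.159), and the value near 0 changed sign with the setting. The intervals of that comparison ran from -0.57 to 0.65 on the brighter probe set and from -1.23 to -0.06 on the dimmer, so a halving of Ucp2 lies outside the former and inside the latter. The exact permutation test of the brighter Ucp2 probe set over the 3 groups gave p = 0.321, and 0.0381 without control pool 1.

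Whether the genes differed in response was asked on each array, as the log2 signal of Ucp3 minus that of Ucp2, both from the brighter probe set. This value was 0.01 ± 0.66 (SD, n = 3) in control, 0.59 ± 0.05 (n = 3) in unloaded and -0.96 ± 0.71 (n = 2) in walked pools. The change of Ucp3 exceeded that of Ucp2 by 0.58 in unloaded against control, and Ucp3 fell by 1.55 more than Ucp2 in walked against unloaded. The exact permutation test over the 3 groups gave p = 0.0821, so a difference in response between the genes was not shown at this size on these probe sets. The p was 0.0286 without control pool 1 and 0.0429 without walked pool 1, and 0.186 at the highest with any other 1 array left out. The control values ran from -0.70 to 0.60, and control signals ran from 302.3 to 396 for Ucp3 and from 214 to 491 for Ucp2.

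Of the other uncoupling proteins and their kin, Ucp1 was dim on its 2 probe sets, with mean signals of 4.50 to 14.7 in every group, under the filter minimum of 25.8. Slc25a14, a brain-enriched relative also known as Ucp5, had a signal of 63.1 ± 18.4 (SD, n = 3) in control and limma log2 fold changes of -0.21, -0.58 and -0.80 in the 3 comparisons in turn, not called. The mitochondrial carrier list had 11 tested genes. With unloading limma called 0 of them, and 1 had an unadjusted p under 0.05, where 3.71% of all genes rose and 2.50% fell, so a count of 0 is near the background. After walking 1 rose, Slc25a5, an ADP/ATP exchanger, at 1.20 ± 0.15 against unloaded and 0.97 against control, where 2.35% and 3.74% of all genes rose, and the call against control was lost without walked pool 2. Slc25a4, the ADP/ATP exchanger of muscle, had 0.11 in walked against unloaded, and Slc25a20, which carries acylcarnitines into mitochondria, had -0.57 ± 0.18 (limma adjusted p = 0.125). The only one of 10 flanking protein-coding genes with a value here was Rab6a, a GTPase of Golgi traffic, at -0.63 in unloaded against control (limma adjusted p = 0.189).

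Ucp3 is a known target of the PPARs, the fatty acid-sensing receptors, so genes of fatty acid oxidation and other PPAR targets were read beside it. In unloaded against control 4 of 26 rose and 0 fell, against 3.71% of all genes rising. They were the fatty acid transporter Cd36 (2.61 ± 0.63), Acsl6, which activates fatty acids (0.83), Decr1, an enzyme of unsaturated fatty acid oxidation (0.78), and Pdk4, the kinase that shuts off pyruvate oxidation (0.57 ± 0.15). The list median was 0.14 against -0.08 for all genes, and 20 of 26 lay above 0. Cpt1a, Cpt1b and the lipase Lpl had 0.16, 0.06 and 0.46 and were not called. The count of 4 was 0 without unloaded pool 2, 1 without control pool 1, unloaded pool 1 or walked pool 1, and 2 without control pool 3, unloaded pool 3 or walked pool 2. Cd36 read 47.1 in control pool 3 against 382 and 418 in the other control pools.

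From unloaded to walked 3 of these 26 genes fell and 0 rose, against 1.74% of all genes falling, with a list median of -0.20 against -0.05. Cpt1a, which passes fatty acids into mitochondria, went from 88.8 ± 9.21 (SD, n = 3) to 42.6 ± 9.66 (n = 2), at -1.08 ± 0.23. Its partner Cpt2 had -0.56 and Etfa, the electron acceptor of the acyl-CoA dehydrogenases, -0.64. The count of 3 was 0 without unloaded pool 1 or walked pool 1 and 1 without control pool 2, unloaded pool 3 or walked pool 2. Pdk4 returned from 3187 to 2158, its control level being 2168, but its change of -0.56 was not called (limma adjusted p = 0.0915). Cd36 had -0.23 and Lpl -0.24. Walked against control, Cd36 was still at 2.37 and not called (limma adjusted p = 0.0594), and its dimmer probe set was called higher (2.00). Dimmer probe sets of Eci1 (-0.65) and Etfa (-0.48) were called lower there, and their brightest ones were not. Read from brightest probe sets, 1 gene of the list fell, Cpt1a (-0.91), against 4.63% of all genes. That count was 0 without control pool 2, walked pool 1 or walked pool 2.

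**Figure D3:**
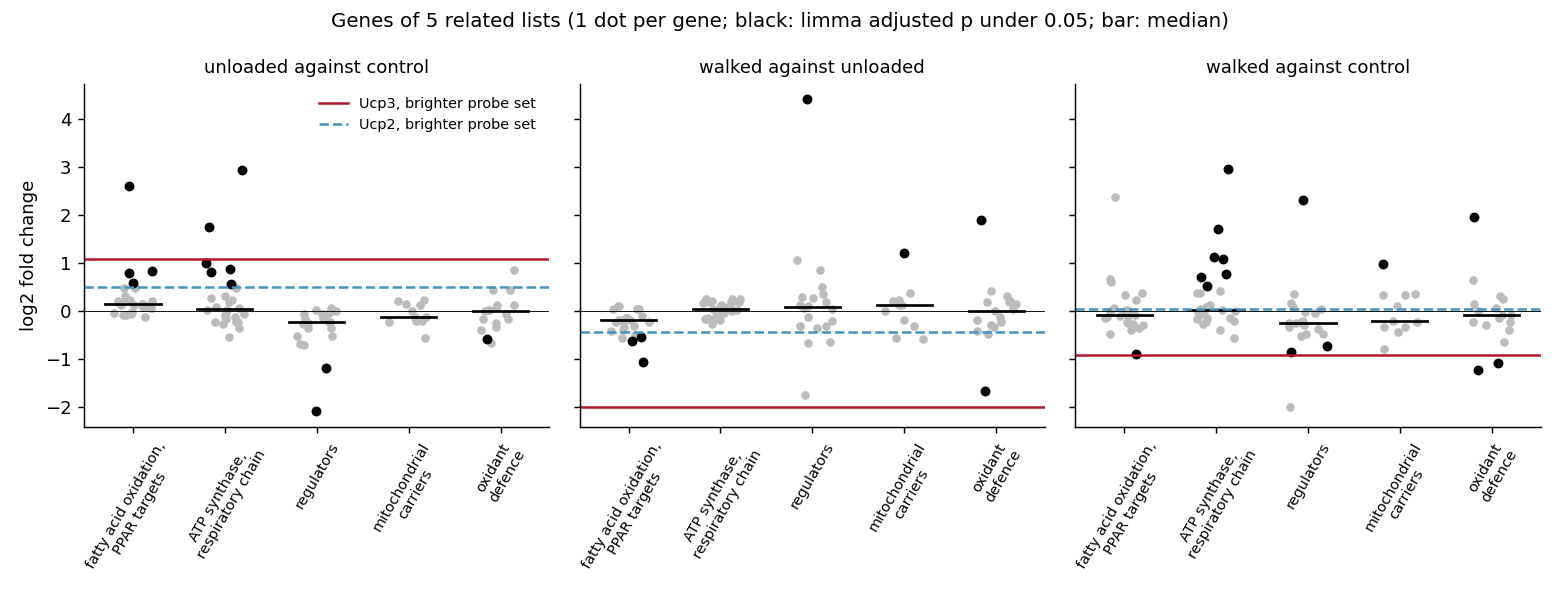
Log2 fold change (y axis) of each gene of 5 lists in the 3 comparisons, 1 dot per gene, with the list median as a bar and genes with a limma adjusted p under 0.05 in black. Red and dashed blue lines mark the brighter probe sets of Ucp3 and Ucp2. In walked against unloaded the Ucp3 line at -2.003 lies below every dot.

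The regulators of uncoupling protein genes were read next. Of 20 tested in unloaded against control, 0 rose and 2 fell, against 2.50% of all genes falling, with a median of -0.25. The falls were the orphan nuclear receptor Nr4a1 (-2.10) and the lipogenic factor Srebf1 (-1.19). The PPAR genes Ppara and Ppard had -0.07 and -0.24, their partner Rxrg 0.05 and the thyroid hormone receptor Thra 0.01, none of them called. After walking 1 of 20 changed against unloaded, Nr4a1, which rose by 4.41 ± 0.27, where 2.35% of all genes rose and 1.74% fell. Against control, walked pools had Nr4a1 higher (2.30), and Prkag1, a subunit of AMP kinase (-0.86), and the E-box factor Usf1 (-0.74) lower, where 3.74% of all genes rose and 4.63% fell. A dimmer Usf1 probe set was called higher in unloaded against control (1.86) and not called in walked against control (1.07). Its means were 11.1 in control, 42.2 in unloaded and 23.2 in walked pools. Only the unloaded mean lay above the filter minimum of 25.8. The probe set thus passed the filter through the group where it was high, and nothing is drawn from its call. The falls of Prkag1 and Usf1 were both lost after quantile normalization and without control pool 2, control pool 3 or walked pool 2, where the count was 0. It was 1 without control pool 1 or unloaded pool 1. Pparg, the PPAR of fat cells, was dim, with 29.0 in control.

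The respiratory chain and ATP synthase, whose gradient uncoupling would dissipate, were read as a further list. Of 26 genes 6 rose in unloaded against control, those with the smallest p being Atp5pd (1.75), Ndufs1 (2.93), Ndufa5 (1.00) and Cox7b (0.80), against 3.71% of all genes. The list did not move as a whole, with a median of 0.04 against -0.08 for all genes and 15 of 26 above 0. Atp5if1 (-0.56) and Cox5b (-0.35) were lower and not called. A dimmer Ndufb5 probe set was called lower (-0.64), and its brightest one (-0.27) was not. Between unloaded and walked pools limma called 0 of 26, and 1 had an unadjusted p under 0.05. Of all genes 2.35% rose and 1.74% fell there, so a count of 0 is near the background. Walked against control, 7 rose, against 3.74%, among them Atp5pd (1.70) and Ndufs1 (2.96), and the count was 4 without walked pool 2. The list median was 0.02 in that comparison, against -0.11 for all genes. Among dimmer probe sets there, Cox6c was called lower (-0.98), and Atp5pf (0.82) and Cox8b (0.70) were called higher. The catalytic subunit Atp5f1b had log2 fold changes of 0.08, -0.16 and -0.08 in the 3 comparisons in turn.

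Of 17 genes of defence against mitochondrial oxidants, 1 fell in unloaded against control, the lipid peroxidase Gpx4 (-0.58), against 2.50% of all genes. The count was 0 without unloaded pool 2. After walking the haem-degrading enzyme Hmox1 rose (1.88) and Txnip, the inhibitor of thioredoxin, fell (-1.68 ± 0.15), where 2.35% of all genes rose and 1.74% fell. Txnip stayed lower in walked against control (-1.25), as did Gsr, glutathione reductase (-1.10), against 4.63% of all genes, and Hmox1 stayed higher (1.94). The count of 2 lower was 1 without walked pool 2. The other tested probe set of Gsr was called in unloaded against control instead (-0.81). Dimmer probe sets of the peroxidase Prdx3 (0.76) and the thioredoxin reductase Txnrd1 (-0.62) were also called there. Their brightest probe sets, at 0.43 and -0.27, were not. The mitochondrial superoxide dismutase Sod2 had 0.85 and the peroxidase Gpx1 0.11 in unloaded against control, not called. On its brighter probe set Txnip had 2198 ± 262 (SD, n = 3) in control, 2951 ± 165 (n = 3) in unloaded and 928 ± 152 (n = 2) in walked pools. Its order of groups was that of Ucp3, and its change in unloaded against control, 0.43 ± 0.13, was not called (limma adjusted p = 0.0851).

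Markers of fast fibres, where Ucp3 is known to be higher, had their highest sums in unloaded pools, while the walked sums lay inside the control range. The summed signal of the 9 fast fibre markers with a value ran from 11844 to 14410 in control, from 15170 to 17074 in unloaded and from 12266 to 12676 in walked pools. Of the 9, limma called 0 in unloaded against control (8 above 0, median 0.35, 4 at an unadjusted p under 0.05), where 3.71% of all genes rose and 2.50% fell. Against unloaded, walked pools had 2 lower, Tnni2 (-0.83) and Myh2 (-0.64), where 1.74% of all genes fell. Against control limma called 0 of 9, with a median of 0.00 and 3 at an unadjusted p under 0.05. Slow fibre sums were 20564 to 23108, 22083 to 30108 and 28217 to 31059 over the same groups. Of the 6 slow fibre markers, 4 lay above 0 with unloading, and 1 was called lower, Tpm3 (-0.95), where 2.50% of all genes fell. Walked against control, 3 were called higher, Tnni1 (0.58), Myl2 (0.60) and Myl3 (0.58), where 3.74% of all genes rose. Adipocyte sums (8 markers) overlapped, with 1655 to 2012, 1684 to 1970 and 1567 to 1973. The largest part of them came from 1 Lep probe set, at 1046 in control, where the other Lep probe sets read 66.1 and 24.0. The overlap of sums therefore says little about the other adipocyte markers. Fabp4 alone was called higher with unloading (1.52), from 102 to 287. Leukocyte sums (13 markers), which bear on Ucp2, were 1639 to 1662 in control, 1572 to 1806 in unloaded and 1267 to 1420 in walked pools. Of the 9 leukocyte markers tested, Cd48 rose with unloading (1.402), RT1-Da fell from unloaded to walked (-0.85), and Cd74 (-0.65) and RT1-Da (-0.58) were lower in walked against control, where 4.63% of all genes fell. Ptprc, the pan-leukocyte marker CD45, was dim at 45.6 in control, with -0.83, -0.02 and -0.85 in the 3 comparisons, not called. Endothelial sums (6 markers) were 425 to 513, 383 to 436 and 409 to 462, with Pecam1 at -0.27 in unloaded against control, not called. The part of the fast fibre and leukocyte markers in the uncoupling protein results was not tested.

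The genes nearest to Ucp3 were found by the root mean square difference over the 8 arrays between log2 signals, each centred on its own control mean. For the other probe set of Ucp3 this distance was 0.28, and 1 of 3153 genes was nearer, while the median gene was at 0.91. The nearest were Cyp4b1, a cytochrome P450 (0.25), the transcription factor Klf10 (0.40), Rcn3, a calcium-binding protein of the endoplasmic reticulum (0.42), the class I histocompatibility gene RT1-S3 (0.43) and the adiponectin receptor Adipor2 (0.46). Cyp4b1 read 44.1 ± 3.31 (SD, n = 3) in control, 107 ± 4.85 (n = 3) in unloaded and 21.6 ± 4.23 (n = 2) in walked pools. Klf10 had 1.24 with unloading and -1.97 with walking, and 0.69 and -1.10 on its other probe set. Adipor2 had 0.62 and -1.05, but -0.01 and -0.22 on its other probe set.

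For Ucp2 the own other probe set was at 0.57, and 1457 of 3153 genes were nearer to the brighter Ucp2 probe set than that. The nearest were the clathrin light chain Clta (0.12), the acetylcholine receptor subunit Chrna1 (0.15), the aldehyde dehydrogenase Aldh3a1 (0.16), the potassium channel Kcnj12 (0.17) and Idh3g of the citrate cycle (0.17). All 5 had their lowest array in control pool 3 and were not called in any comparison, as with Ucp2. They were picked for closeness to Ucp2 array by array, so both traits follow from the choice. Clta had -0.42 on its other probe set with unloading, against 0.41 on the one used.

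**Figure D4:**
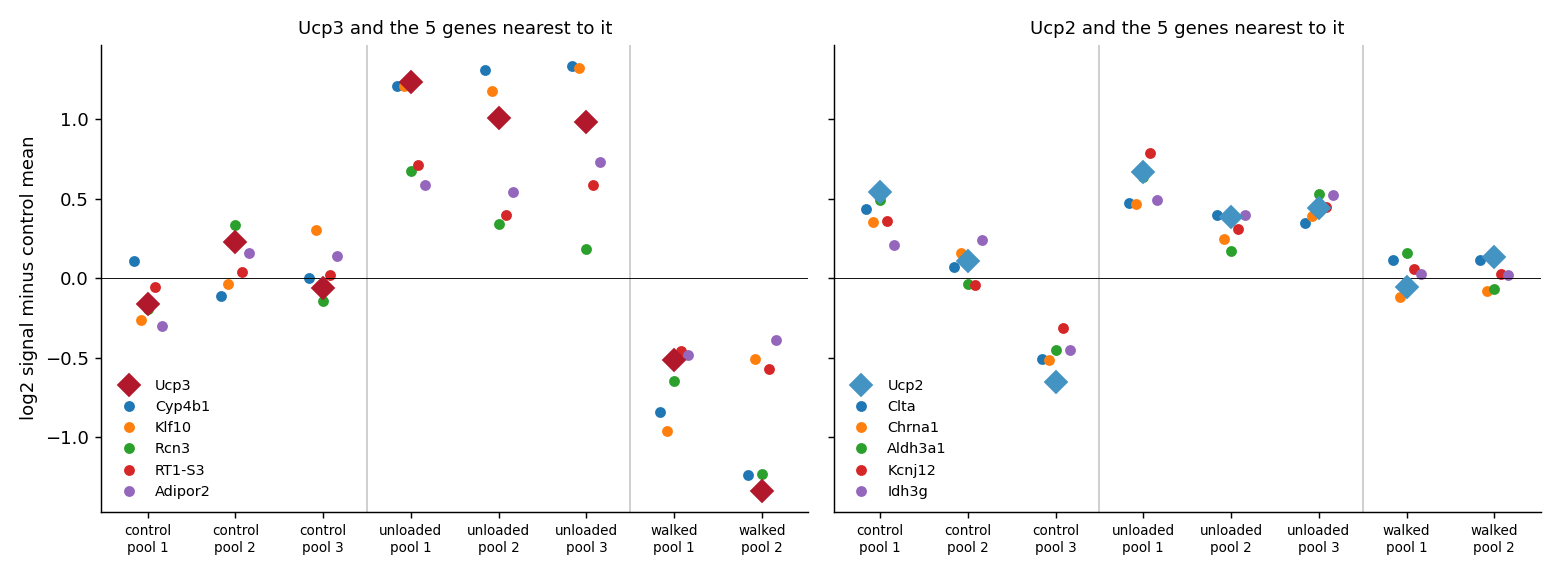
Log2 signal minus the mean of the control pools (y axis) on each of the 8 arrays (x axis), for Ucp3 (left) and Ucp2 (right) and the 5 genes nearest to each. Diamonds are the uncoupling protein and circles the other genes. Unloaded arrays lie above 0 and walked arrays below it for Ucp3 and its 5 neighbours, and control pool 3 is lowest in the Ucp2 panel. The genes were picked for likeness on these arrays, so a shared pattern follows from the choice.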

How the data were processed

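RNA pools of rat soleus were measured on 8 one-colour Affymetrix arrays, with labelled cRNA made from 10 microg total RNA. The authors deposited 1 signal intensity per probe set, on a linear scale. MAS5 is the software named in the submitters' processing notes (version and scaling target not given in the sources used here). The deposited intensity values had trimmed means of 148.4 to 148.8, so the arrays had been scaled before deposit. MAS5 subtracts a background estimate, so dim signals are noisy.

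Arrays were scaled to a trimmed mean of 148.6 (2% off each end), values under the 10th percentile (4.10) were set to it, and log2 was taken. Probe sets under the 40th percentile of mean signal (25.8) were left out. In R 4.3.3, limma 3.58.1 (lmFit, contrasts.fit, eBayes with a trend, two-sided) was fitted to 5244 probe sets and 3 groups, with 5 residual degrees of freedom, and adjusted by Benjamini-Hochberg. The fit was tested on simulated data. The number of arrays limits the precision. Of the probe sets, 7006 had 1 gene symbol, 308 several and 1426 are unnamed here, and lists use the brightest probe set of 3154 genes. Exact permutation tests used every assignment of arrays to the 3 groups. The p is the share of assignments with a spread between groups at least as large as the observed one, whatever the direction. Each list was named by up to 4 called members per comparison and by genes set with the list, and each uncoupling protein by the 5 nearest genes.

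The members and lists were chosen with earlier results of these data known. The comparisons share arrays, so their values are given side by side. Alternatives were other normalizations, floors and filters, no trend, only the groups compared, a minimum fold of 1.5, a block on the pool number, the mean of probe sets, and each array left out. List counts without each array were added after seeing the data. Pool numbers did not pair the arrays: the deviations of same-numbered pools correlated at -0.07 to 0.05.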

Additional observations from a re-analysis of the deposited data

How the results depend on the processing

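The fall of Ucp3 in walked against unloaded kept its direction and call in all 19 alternatives on the brighter probe set, from -2.41 to -1.59. Its rise with unloading kept both except with no filter on dim probe sets (1.08, limma adjusted p = 0.0699) and against a minimum fold of 1.5 (1.08, 0.569), and ran from 0.995 to 1.19 without any 1 array. In walked against control the Ucp3 call was lost with no filter (-0.93, limma adjusted p = 0.119), without a trend (-0.93, 0.0857), with only those groups in the fit (-0.93, 0.0613), with the pool number as a replicate block (-0.97, 0.0527) and against the minimum fold (-0.93, 1.00), and ran from -1.34 to -0.52 without any 1 array. On the dimmer probe set the block gave -0.70 (limma adjusted p = 0.0536). The cause of these losses was not tested.

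Ucp2 was not called by limma under any alternative. In walked against control its brighter probe set, at 0.04, turned to -0.14 with the pool number as a replicate block and to -0.30 with the mean of its probe sets, and ran from -0.29 to 0.31 without any 1 array. The dimmer one in unloaded against control, at -0.04, turned to 0.0097 after quantile normalization and ran from -0.20 to 0.13 without any 1 array. The exact permutation p over 3 groups ran from 0.0381 to 0.581 for Ucp2 and from 0.0286 to 0.186 for Ucp3 minus Ucp2 without any 1 array.

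Probe sets called numbered 383 with unloading, 220 from unloaded to walked and 476 from control to walked. With no filter the first and last were 228 and 216, without a trend 243 and 211. The minimum fold gave 55, 80 and 43, and the replicate block 251 in walked against control. Without any 1 array they ran from 230 to 404, from 120 to 263 and from 105 to 503. The pool numbers are shared labels only, and no other call on Ucp3 or Ucp2 from its brighter probe set changed with the block. Signals near the floor limit the folds of dim genes, and the uncoupling protein signals lay well above it.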
